A study of Mus musculus with 16 samples.

Results

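The genes described here encode voltage-gated sodium and calcium channels, HCN channels and TRP channels, together with the auxiliary subunits of the first families. They were taken by symbol, as every gene whose name starts with Scn, Hcn or Trpv followed by a digit, or with Cacna, Cacnb, Cacng, Trpc or Trpm, and that has a probe set assigned to it alone. The rule found 42 genes, measured by 52 probe sets, among the 13180 genes and 20372 probe sets of the table, and each gene is given by its probe set with the highest mean. RNA of whole hippocampus from 3-month-old male wild-type C57BL/6 mice was hybridized to Affymetrix mouse exon arrays, 1 mouse per array and 16 arrays in all. Mice received SL327 (50 mg/kg) 1 h before kainic acid (20 mg/kg) (n = 3), kainic acid alone (n = 3), SL327 alone (n = 3) or vehicle (n = 3), and the hippocampi were taken 1 h after the seizures began, or at the corresponding time in mice without kainic acid, and 4 further mice were left untreated. The labels name PBS as the injection of the vehicle mice, while the protocol names DMSO with PBS, so the solvent of that group is uncertain. All drugs were given to the whole animal, and a hippocampus holds many cell types, so that fewer cells of a type and less RNA per cell cannot be told apart.

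Voltage-gated sodium channels carry the rising phase of the action potential, and their beta subunits set the gating and the surface level of the pore. Voltage-gated calcium channels turn depolarization into calcium entry. They consist of a pore-forming alpha1 subunit with an auxiliary alpha2delta and a beta subunit, and several proteins of the gamma family act mainly as partners of AMPA receptors. HCN channels open on hyperpolarization and pace rhythmic firing, while TRP channels are cation channels that respond to receptors, lipids, ions, temperature or osmotic pressure. Kainic acid activates glutamate receptors and provokes seizures, and SL327 inhibits MEK, the kinase that activates ERK. The comparisons ask which transcripts an episode of strong activity alters within an hour and which of these alterations are absent when MEK is blocked.

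Of the 42 genes, 32 lay above the median of their array in at least 3 arrays and were tested. The tested genes were 3 of 4 sodium channel alpha subunits, 2 of 3 sodium channel beta subunits, all 8 alpha1, 3 of 4 alpha2delta, all 3 beta and 6 of 7 gamma subunits of calcium channels, 2 of 3 HCN, 2 of 3 TRPC, 2 of 4 TRPM and 1 of 3 TRPV genes. The 10 genes that were not tested (Scn3a, Scn4b, Cacna2d3, Cacng1, Hcn4, Trpc6, Trpm2, Trpm4, Trpv2 and Trpv3) lay above the array median in 0 arrays. Trpm3 and Trpv4 lay above the array median in 4 arrays each and Trpm7 in 14. The arrays above it were untreated replicates 1 and 2 and SL327 replicates 2 and 3 for Trpm3. For Trpv4 they were untreated replicate 2, SL327 replicates 2 and 3 and replicate 2 of SL327 with kainic acid. The arrays in which Trpm7 lay below the median were kainic acid replicates 2 and 3. Probe sets shared with another gene (2 of them) were left out, 1 assigned to Trpc5 and Mageb16 and 1 to Trpc4ap and Myh7b. Trpc5 is therefore not among the 42 genes.

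All values are log2 intensities, on which a difference of 1 is a 2-fold change, with ± SE for differences and ± SD for group means. Early response genes served as a check of the treatments. Their median per array lay 1.75 to 2.33 log2 units above the vehicle mean in kainic acid mice, and 0.14 to 0.67 above it in mice given both drugs, and replicate 2 of the combined treatment was the lowest of its group. Within groups, arrays correlated at r = 0.947 to 0.986 over the probe sets tested, with the lowest value among the untreated mice, where replicate 2 had the highest choroid plexus markers of all arrays. Some of the results that depend on these 2 arrays are given without them as well.

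**Figure D1:**
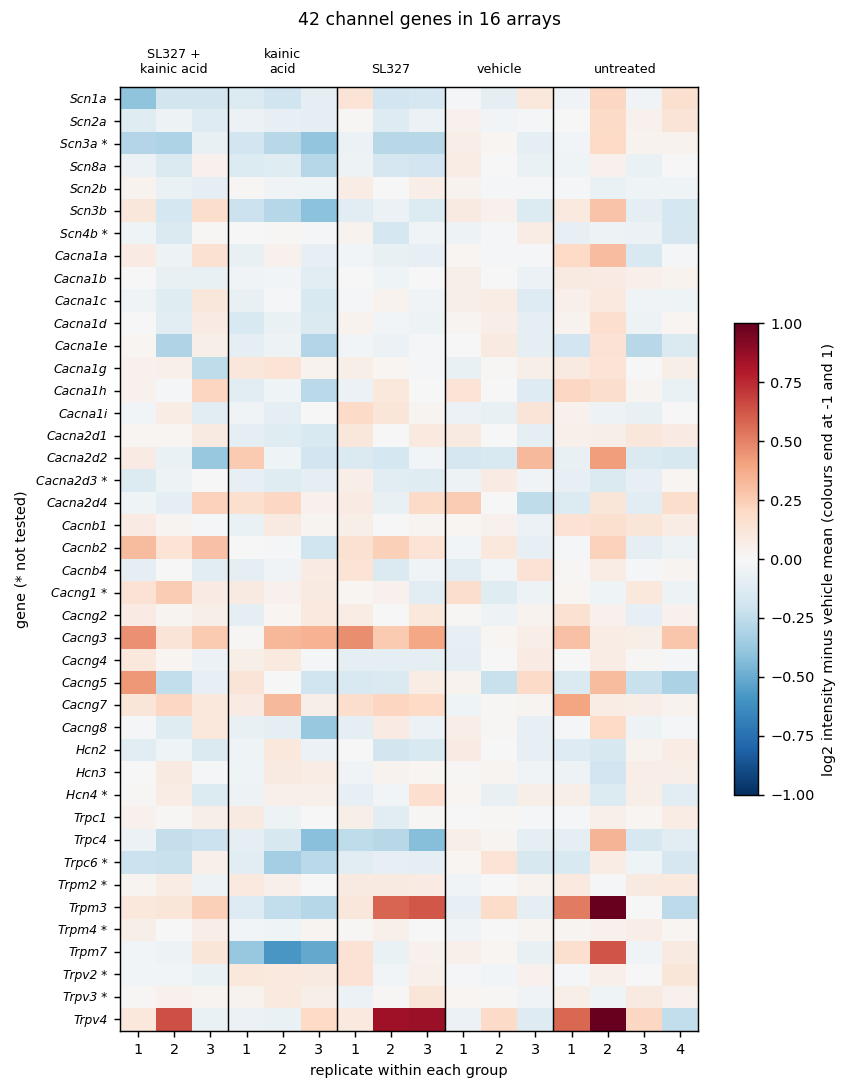
Log2 intensity of each of the 42 channel genes minus its vehicle mean (colour scale, ends at -1 and 1) in all 16 arrays, with genes in rows by family and arrays in columns by group. Most cells are pale, and the deepest colours are in Trpm3 and Trpv4, whose highest values of 8.36 and 8.02 are both in untreated replicate 2.

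Kainic acid alone left most channel transcripts near their vehicle level. Of the 32 genes tested, 0 rose and 1, Trpm7, fell, where 19.6% of all probe sets changed in the same test, 7.41% rising and 12.2% falling (limma, adjusted p under 0.05 over 8520 probe sets). At an unadjusted p under 0.05 there were 5 members (15.6%), against 33.6% of all probe sets. The median change of the channel genes was -0.04 log2 units, where that of all probe sets tested was -0.05, and the changes ranged from -0.49 to 0.23. A change beyond 0.2 in either direction was seen for 5 members (15.6%) and for 25.1% of all probe sets. The 95% interval of the change lay within 0.5 log2 units of 0 for 28 of the 32 genes (87.5%) and for 84.9% of all probe sets. The intervals of Trpm3, Trpm7, Trpv4 and Scn3b reached beyond that bound. The arrays of both groups did not overlap for 7 members (21.9%), against 40.8% of all probe sets.

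Among the sodium channel alpha subunits, Scn8a encodes Nav1.6, the main channel of the axon initial segment. It measured 8.83, 8.85 and 8.69 in kainic acid mice and 9.04, 8.97 and 8.90 in vehicle mice. The arrays of these groups did not overlap, although the adjusted p of the difference of -0.18 ± 0.06 (SE) was 0.0537 with limma and so missed the threshold. In mice given SL327 with kainic acid Scn8a measured 8.91, 8.83 and 9.02, and in mice given SL327 alone 8.92, 8.80 and 8.78. SL327 alone thus stood 0.14 ± 0.06 below vehicle without passing the test (limma, adjusted p = 0.203). Scn1a (Nav1.1, prominent in interneurons) averaged 8.72 ± 0.05 with kainic acid and 8.86 ± 0.10 with vehicle (SD, n = 3 each), and Scn2a (Nav1.2) averaged 9.66 ± 0.02 with kainic acid and 9.73 ± 0.04 with vehicle. Neither passed the test.

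Scn3a (Nav1.3, best known from the developing brain) did not pass the filter. Its probe set measured 7.11, 7.02 and 6.90 in kainic acid mice, all below the 7.36, 7.32 and 7.21 of vehicle mice. When all probe sets were tested without a filter, the difference of -0.29 ± 0.08 passed (limma, adjusted p = 0.0352), but SL327 with kainic acid, at 7.01, 6.99 and 7.22, and SL327 alone, at 7.24, 7.02 and 7.02, also lay near the kainic acid values. The second probe set of Scn3a differed by 0.06 ± 0.24 in the same comparison. The genes of Scn1a, Scn2a and Scn3a are on chromosome 2.

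The sodium channel beta subunits differed in the size of their estimates. Scn3b, which encodes the beta3 subunit, measured 10.44, 10.37 and 10.25 in kainic acid mice and 10.75, 10.70 and 10.52 in vehicle mice. All kainic acid arrays were below all vehicle arrays, yet the change of -0.30 ± 0.11 had an adjusted p of 0.0747 (limma). Scn2b (beta2) averaged 10.04 ± 0.03 with kainic acid and 10.06 ± 0.03 with vehicle, with a 95% interval of the difference from -0.11 to 0.07. A fall of the size estimated for Scn3b lies outside the interval of Scn2b.

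The calcium channel alpha1 subunits yielded 0 calls in any of the 7 comparisons. Of all probe sets 19.6% were called in kainic acid minus vehicle and 18.9% in SL327 with kainic acid minus kainic acid. The share was 6.31% in SL327 minus vehicle, 5.76% in the interaction and 0% to 0.869% in the rest, where an absent call says little. With kainic acid their differences from vehicle ran from -0.15 to 0.10, and all 8 intervals lay within 0.5 of 0. Cacna1d (Cav1.3, an L-type channel) had the smallest p of the 8. It averaged 7.83 ± 0.05 in kainic acid mice and 7.95 ± 0.08 in vehicle mice, with adjusted p = 0.19 (limma). Cacna1c, the other L-type channel measured, averaged 8.06 ± 0.07 with kainic acid and 8.14 ± 0.12 with vehicle. For the presynaptic channels, the difference was -0.04 for Cacna1a (P/Q-type), with an interval of -0.23 to 0.16, and -0.06 for Cacna1b (N-type), with an interval of -0.15 to 0.03. Cacna1e (R-type) has 3 probe sets, and their differences were -0.15, -0.24 and -0.17 with adjusted p values of 0.385, 0.13 and 0.0956 (limma). The low-threshold T-type genes Cacna1g, Cacna1h and Cacna1i had differences of 0.10, -0.14 and -0.04 that did not pass the test. Further probe sets of Cacna1i had differences of 0.002 and 0.007.

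Among the auxiliary subunits of calcium channels, Cacna2d1 encodes alpha2delta-1, the target of gabapentin. It measured 8.96, 8.92 and 8.89 in kainic acid mice and 9.14, 9.04 and 8.95 in vehicle mice. The ranges overlapped at 1 array of each group, and the change of -0.12 ± 0.05 had an adjusted p of 0.101 (limma). Cacna2d2 and Cacna2d4 had differences of 0.01 and 0.14. The beta subunits carry the pore to the membrane, and Cacnb1, Cacnb2 and Cacnb4 had differences of 0.02, -0.07 and -0.01 with kainic acid, far from the threshold.

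In the gamma family, Cacng2 (stargazin), Cacng3, Cacng4 and Cacng8 are TARPs that traffic AMPA receptors, and Cacng5 and Cacng7 are their relatives. Cacng3 measured 9.98, 10.30 and 10.32 in kainic acid mice and 9.89, 9.99 and 10.03 in vehicle mice. The groups overlapped through 1 kainic acid array, and the difference of 0.23 ± 0.10 had an adjusted p of 0.132 (limma). Cacng8, the abundant hippocampal TARP, averaged 8.74 ± 0.17 with kainic acid and 8.92 ± 0.08 with vehicle (adjusted p = 0.172, limma). The differences of the other 4 ran from -0.03 to 0.16.

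For the 2 HCN genes tested, the probe sets of highest mean had estimates near 0. Hcn2 averaged 8.80 ± 0.09 with kainic acid and 8.80 ± 0.08 with vehicle, and its interval ran from -0.16 to 0.16. Hcn3 averaged 7.87 ± 0.07 with kainic acid and 7.83 ± 0.03 with vehicle, with an interval from -0.09 to 0.18. Changes within these intervals were not excluded with 3 mice per group. The other 2 tested probe sets of Hcn3 had differences of -0.25 ± 0.19 and -0.05 ± 0.06 (SE), and a probe set that did not pass the filter had 0.33 ± 0.13, none of which passed (limma, adjusted p = 0.393, 0.605 and 0.119, the last in the fit without the filter).

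Trpm7 was the member that passed the test. It encodes a channel permeable to magnesium, zinc and calcium that carries a kinase domain on the same protein. It measured 7.48, 7.27 and 7.35 in kainic acid mice, against 7.91, 7.88 and 7.79 in vehicle mice and 8.02, 8.48, 7.82 and 7.95 in untreated mice. All kainic acid arrays were below all arrays of both control groups. In kainic acid replicates 2 and 3 Trpm7 also lay below the array median, the bound used by the filter. The change was -0.49 ± 0.13, a ratio of 0.712 (limma, adjusted p = 0.0141), and it lost the call without vehicle replicate 1 (adjusted p = 0.0522) or without kainic acid replicate 2 (adjusted p = 0.0619). Of the other TRP genes, Trpc4 averaged 7.96 ± 0.17 with kainic acid and 8.18 ± 0.08 with vehicle (adjusted p = 0.205, limma), and Trpc1 averaged 8.71 ± 0.07 with kainic acid and 8.69 ± 0.02 with vehicle.

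**Figure D2:**
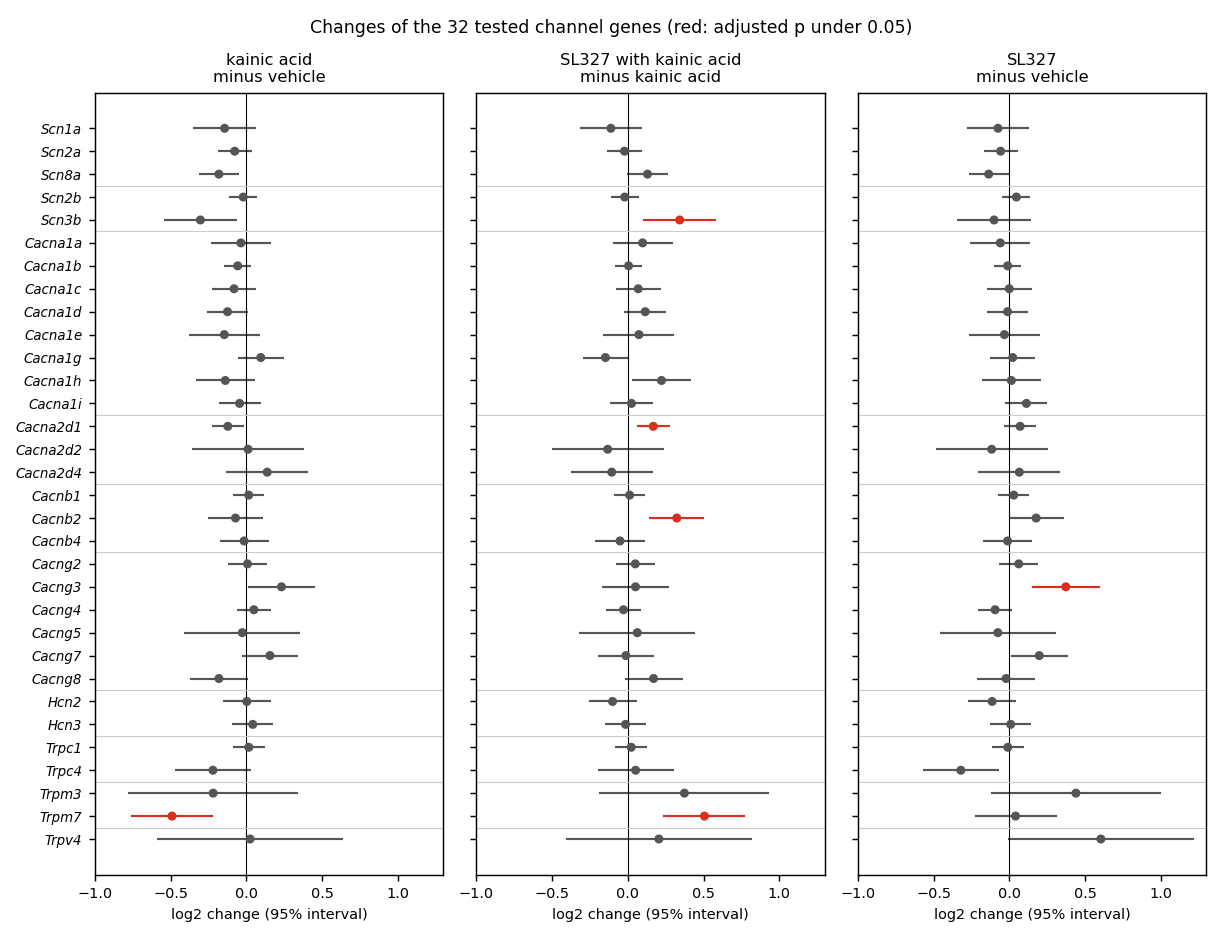
Log2 change (points) with its 95% interval (lines) for each of the 32 tested channel genes, grouped by family, in kainic acid minus vehicle (left), SL327 with kainic acid minus kainic acid (middle) and SL327 minus vehicle (right), with adjusted p under 0.05 in red. Trpm7 is the red point at -0.49 on the left and at 0.51 in the middle, where Cacnb2, Scn3b and Cacna2d1 are red too, and Cacng3 is the red point on the right.

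With SL327 given before kainic acid, 4 of the 32 genes were higher than with kainic acid alone and 0 were lower, namely Trpm7, Scn3b, Cacnb2 and Cacna2d1. Of all probe sets 18.9% passed this test, 13.1% higher and 5.86% lower, so that the share of 12.5% among the channel genes lay near the background. The median change was 0.05 for the channel genes and 0.06 for all probe sets. At an unadjusted p under 0.05 there were 5 members, against 33.9% of all probe sets, and the arrays of both groups did not overlap for 6 members (18.8%), against 37.9%. This comparison uses the same kainic acid arrays as the one above, so a low value in those arrays enters both.

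Trpm7 measured 7.83, 7.81 and 7.98 in mice given both drugs, against 7.48, 7.27 and 7.35 in kainic acid mice. The arrays of the combined treatment lay within the range spanned by vehicle and untreated mice. The difference was 0.51 ± 0.13, a ratio of 1.42 (limma, adjusted p = 0.014), and it lost the call without kainic acid replicate 2 (adjusted p = 0.0605) or without replicate 3 of the combined treatment (adjusted p = 0.0573). In SL327 alone Trpm7 measured 8.003, 7.79 and 7.90, and its difference from vehicle was 0.04. The interaction, which takes the kainic acid effect under MEK inhibition and subtracts the effect without it, was 0.46 ± 0.18 and did not pass (limma, adjusted p = 0.144), although it did without untreated replicate 2.

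Cacnb2, a beta subunit that also binds L-type channels of the heart, measured 9.09, 8.91 and 9.06 in mice given both drugs, against 8.76, 8.76 and 8.57 in kainic acid mice. The groups did not overlap, and the difference was 0.32 ± 0.08 (limma, adjusted p = 0.0173). The adjusted p was 0.08 without kainic acid replicate 3, 0.0616 without replicate 1 of the combined treatment and 0.0628 without replicate 3 of that treatment. Unlike Trpm7, Cacnb2 had shown no called change with kainic acid itself, and SL327 alone, at 8.92, 9.01 and 8.91, lay above the vehicle arrays at 8.74, 8.88 and 8.69. That last difference of 0.18 ± 0.08 did not pass (limma, adjusted p = 0.239). Nor did the difference of 0.25 between the combined treatment and vehicle (limma, adjusted p = 0.194).

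Cacna2d1 measured 9.07, 9.07 and 9.14 in mice given both drugs and 8.96, 8.92 and 8.89 in kainic acid mice. The change was small but the arrays were tight and did not overlap, and the difference was 0.17 ± 0.05, a ratio of 1.12 (limma, adjusted p = 0.0309). A second, dimmer probe set of Cacna2d1 was below the filter. The call was lost without kainic acid replicate 2 or 3 and without any 1 of the 3 arrays of the combined treatment, with adjusted p values of 0.0524 to 0.113.

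Scn3b measured 10.77, 10.48 and 10.83 in mice given both drugs and 10.44, 10.37 and 10.25 in kainic acid mice. The nearest arrays of the groups almost touched, and the difference of 0.34 ± 0.11 passed just under the threshold (limma, adjusted p = 0.049). The call of Scn3b held in 4 of the 16 fits that left out 1 array, those without untreated replicate 2 or 4, kainic acid replicate 1 or replicate 2 of the combined treatment, and elsewhere its adjusted p reached 0.171. The interaction was 0.44 ± 0.16 for Scn3b (adjusted p = 0.122) and 0.27 ± 0.09 for Scn8a (adjusted p = 0.092), the smallest adjusted p among the members in that test. Of all probe sets 5.76% passed the interaction test, and of the channel genes 0 did, with 5 at an unadjusted p under 0.05 against 22% of all probe sets.

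The remaining 28 genes did not pass the test between the combined treatment and kainic acid alone. Cacna1h (a T-type channel) came closest, at 8.80 ± 0.12 with SL327 and kainic acid and 8.58 ± 0.12 with kainic acid alone (limma, adjusted p = 0.0997). Cacna1g, another T-type channel, had the opposite sign, at 8.42 ± 0.17 with SL327 and kainic acid and 8.57 ± 0.05 with kainic acid alone (adjusted p = 0.152).

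**Figure D3:**
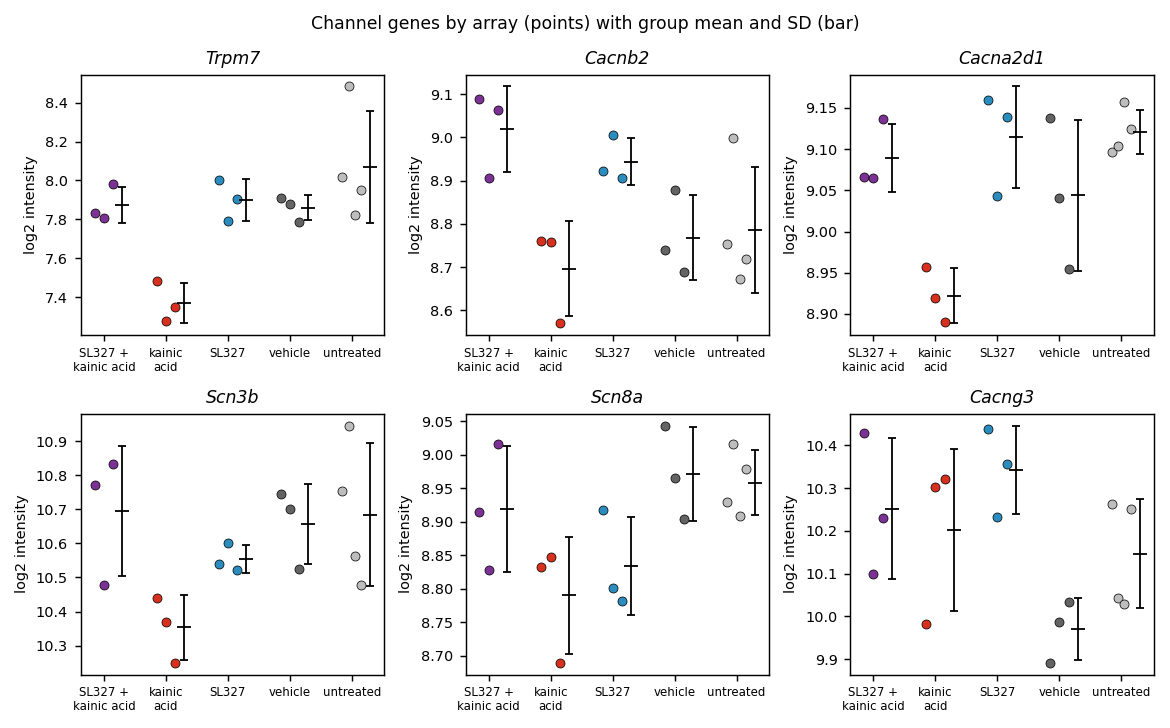
Log2 intensity of Trpm7, Cacnb2, Cacna2d1, Scn3b, Scn8a and Cacng3 in each array (points) with the mean and SD of each group (bars) for SL327 with kainic acid, kainic acid, SL327, vehicle and untreated mice. The 3 kainic acid points of Trpm7 lie between 7.27 and 7.48, below every other array, and the vehicle points of Cacng3 lie between 9.89 and 10.03, below the 3 SL327 points.

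The windows around the transcription start are shown for the members that were higher with SL327 and kainic acid than with kainic acid alone, so that they can be read beside the motifs bound by factors of the activity response. Each holds 250 bases before and 50 after a start in RefSeq (GRCm38.p6), read along the gene, with matches to the searched motifs in capitals. Scn3b has no entry in the table. The windows are chr2:126876212-126876511 (minus strand) for Trpm7, chr2:14604056-14604355 (plus strand) for the first of 2 starts of Cacnb2 and chr5:15934441-15934740 (plus strand) for Cacna2d1.
Trpm7: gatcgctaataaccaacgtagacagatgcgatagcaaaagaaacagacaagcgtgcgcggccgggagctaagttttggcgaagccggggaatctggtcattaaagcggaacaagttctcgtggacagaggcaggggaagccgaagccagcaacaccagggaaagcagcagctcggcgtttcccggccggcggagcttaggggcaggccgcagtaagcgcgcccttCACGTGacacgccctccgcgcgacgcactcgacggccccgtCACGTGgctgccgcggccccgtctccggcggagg
Cacnb2: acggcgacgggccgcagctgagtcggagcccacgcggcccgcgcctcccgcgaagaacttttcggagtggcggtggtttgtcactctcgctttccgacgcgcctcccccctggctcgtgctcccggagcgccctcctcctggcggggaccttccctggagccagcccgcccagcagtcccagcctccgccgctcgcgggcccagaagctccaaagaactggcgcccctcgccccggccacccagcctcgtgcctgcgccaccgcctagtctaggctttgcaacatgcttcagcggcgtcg
Cacna2d1: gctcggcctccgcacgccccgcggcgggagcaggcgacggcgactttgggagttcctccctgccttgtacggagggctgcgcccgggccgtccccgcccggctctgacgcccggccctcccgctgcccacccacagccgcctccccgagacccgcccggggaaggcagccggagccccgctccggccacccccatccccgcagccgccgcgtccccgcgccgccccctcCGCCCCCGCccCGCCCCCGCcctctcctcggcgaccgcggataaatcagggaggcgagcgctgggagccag
The motifs searched on both strands were the CRE (TGACGTCA), AP-1 (TGANTCA), EGR (GCGGGGGCG) and E-box (CACGTG) motifs, and the matches in capitals do not overlap. The Trpm7 window holds the E-box letters at positions -25 and 17 from the start, the Cacna2d1 window holds the EGR letters on the opposite strand at -21 and -10, and neither Cacnb2 window nor that of Cacng3 holds any of the motifs. Among all 32851 promoter windows 7.15% hold the E-box, 2.91% the EGR, 7.81% the AP-1 and 1.79% the CRE letters. The channel genes with an entry, 32 that are not the same as the 32 tested, have 45 windows. Of these 45 windows 2 held an E-box (Trpm7 and the untested Trpv3) and 5 an EGR match (Cacna1b, Cacna2d1, Cacna2d2, Hcn2 and Scn8a). An AP-1 match was in 2 and a CRE in 0. The members' windows had a median GC content of 61%, against 52.7% for all windows. These matches describe the letters of the windows only.

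SL327 alone raised 1 channel gene and lowered 0, where 6.31% of all probe sets changed, 5.48% rising and 0.833% falling. At an unadjusted p under 0.05 there were 4 members, against 22.4% of all probe sets, and the arrays of both groups did not overlap for 6 members (18.8%), against 34.5%. The called gene was Cacng3, with 10.44, 10.23 and 10.36 in SL327 mice and 9.89, 9.99 and 10.03 in vehicle mice. The groups did not overlap, and the difference was 0.37 ± 0.10, a ratio of 1.29 (limma, adjusted p = 0.0485). The untreated mice, at 10.26, 10.04, 10.03 and 10.25, overlapped the SL327 arrays, and against them the difference was 0.20 (adjusted p = 0.258). The vehicle group was thus the lowest of the 5 for Cacng3, and the call held in 4 of the 16 fits that left out 1 array, with adjusted p values up to 0.166. Cacng7 (8.24 ± 0.02 with SL327, 8.04 ± 0.04 with vehicle) and Trpc4 (7.86 ± 0.09 with SL327, 8.18 ± 0.08 with vehicle) had arrays that did not overlap but missed the threshold, with adjusted p values of 0.196 and 0.119 (limma). Trpc4 encodes a receptor-operated channel of lateral septum and hippocampus, and in the fit without untreated replicate 2 its fall with SL327 passed (adjusted p = 0.0273). Hcn2, Scn2b and Cacna1i had differences of -0.11, 0.05 and 0.11 in this comparison, none of which passed. Further probe sets of Cacna1i had differences of 0.15 and -0.002, which did not pass either.

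Trpm3 and Trpv4 had the largest estimated changes with SL327 and the widest errors. Trpm3, a channel gated by heat and by neurosteroids that is also made by choroid plexus epithelium, measured 7.30, 7.76 and 7.80 in SL327 mice, against 7.10, 7.36 and 7.09 in vehicle mice and 7.70, 8.36, 7.18 and 6.92 in untreated mice. Trpv4, an osmotically sensitive channel that is likewise made there, measured 7.02, 7.77 and 7.78 in SL327 mice, against 6.86, 7.11 and 6.79 in vehicle mice and 7.50, 8.02, 7.13 and 6.68 in untreated mice. The untreated mice alone span more than the difference between the treated groups. The differences from vehicle were 0.44 ± 0.26 for Trpm3 (limma, adjusted p = 0.349) and 0.60 ± 0.29 for Trpv4 (limma, adjusted p = 0.234).

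The choroid plexus lies beside the hippocampus, and 10 of 15 of its listed markers were in the table, of which 6 were tested and 0 called in any comparison. Their mean per array was 7.28, 8.05 and 8.18 in SL327 mice, 6.70, 7.43 and 6.79 in vehicle mice and 8.12, 8.64, 7.40 and 6.56 in untreated mice. The 4 arrays with the highest marker means were SL327 replicates 2 and 3 and untreated replicates 1 and 2, which also had the 4 highest values of Trpm3. With kainic acid the marker mean was 6.70 to 7.06 and with SL327 and kainic acid it was 6.64 to 7.74, where replicate 2 had both the highest marker mean and the highest Trpv4, at 7.57. Trpm3 did not follow the marker mean within these groups. It was highest, at 7.42, in replicate 3 of SL327 with kainic acid, which had the lowest marker mean of that group, and lowest, at 6.90, in kainic acid replicate 3, which had the highest of its group. The part of choroid plexus RNA in the values of Trpm3 and Trpv4 was not tested.

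**Figure D4:**
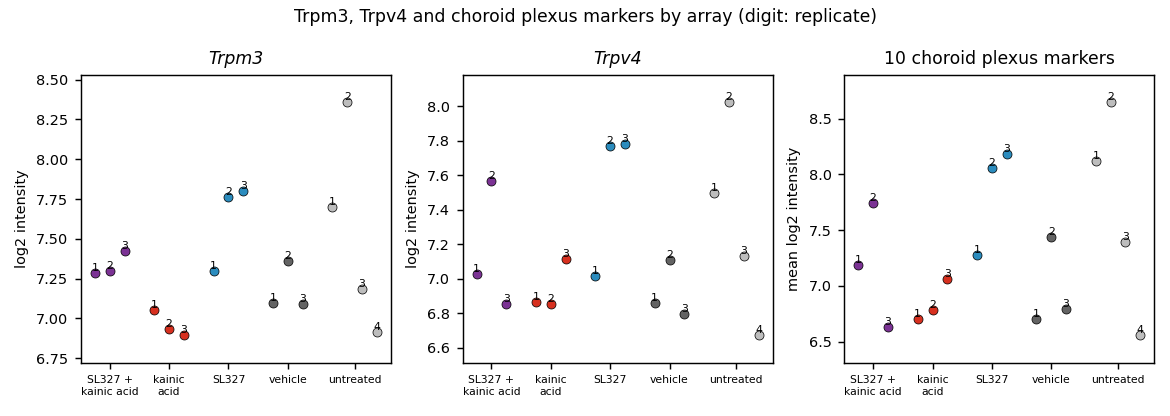
Log2 intensity of Trpm3 and Trpv4 and mean log2 intensity of 10 choroid plexus markers in each array (points, with the replicate number) for SL327 with kainic acid, kainic acid, SL327, vehicle and untreated mice. Untreated replicate 2 is the highest point in all 3 panels, at 8.36, 8.02 and 8.64.

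In the remaining comparisons no channel gene was called. Between the combined treatment and the inhibitor alone 0 of 32 members passed, as did 0% of all probe sets (limma), and the smallest adjusted p of a member was 0.472 (Cacng4). At an unadjusted p under 0.05 there was 1 member, against 10.5% of all probe sets. The comparison also called 0 of 12 tested early response genes, although their median difference was 0.85, so an absent call says little here. Between SL327 with kainic acid and vehicle 0 members passed, against 0.869% of all probe sets, with 3 members (Cacnb2, Cacng3 and Scn1a) and 13.7% of all probe sets at an unadjusted p under 0.05. Scn1a averaged 8.61 ± 0.13 with SL327 and kainic acid and 8.86 ± 0.10 with vehicle. Between vehicle and untreated mice 0 members passed, as did 0% of all probe sets, and 1 member, Cacnb1, had an unadjusted p under 0.05, against 6.68% of all probe sets. Cacnb1 measured 8.58, 8.61 and 8.51 in vehicle mice and 8.71, 8.73, 8.68 and 8.64 in untreated mice, so that its groups did not overlap. The intervals of 30 of the 32 genes lay within 0.5 of 0 in the first of these comparisons, of 29 in the second and of 30 in the last. Of all probe sets 92.1%, 91.6% and 94.3% had intervals within that bound in the same comparisons.

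The choice of control mattered for several members. Against the 4 untreated mice, 7 genes were lower with kainic acid (Trpm7, Scn8a, Scn3b, Scn2a, Cacna2d1, Cacna1b and Cacna1d), while 32.8% of all probe sets changed. The comparison of kainic acid with untreated mice was not repeated without untreated replicate 2. Without untreated replicate 2, which shares the estimate of the spread, Scn8a and Scn3b joined Trpm7 among the genes lower with kainic acid than with vehicle, while 25.1% of all probe sets changed. Scn8a also joined it when replicate 2 or 3 of the combined treatment or SL327 replicate 1 was left out, while 19.7%, 19.4% and 19.3% of all probe sets changed. Cacna2d1 joined it, also lower, in the fit lacking vehicle replicate 3 (16.1%), and Cacng3, higher, in the fit lacking kainic acid replicate 1 (21.4%).

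Some markers of dentate granule cells, the principal neurons of the dentate gyrus, fell with kainic acid as Trpm7 did. Of 9 listed markers 8 were in the table and 7 were tested, and 3 of the 7 fell (Prox1 by 0.67, Dsp by 0.92 and Lct by 0.79), where 12.2% of all probe sets fell. The same 3 were higher with SL327 and kainic acid than with kainic acid alone (by 0.63, 0.88 and 0.71). The other 4 did not pass in either comparison, with differences between kainic acid and vehicle of 0.00 for Calb1, -0.03 for Plk5, -0.16 for C1ql2 and -0.26 for Fam163b. The mean of the 8 markers was 8.70 to 9.21 per array with SL327 and kainic acid, 8.42 to 8.60 with kainic acid and 8.74 to 8.996 with vehicle. The mean of the excitatory neuron markers was 9.45 to 9.51 with kainic acid and 9.50 to 9.62 with vehicle. Single markers of some other lists were called as well. Of 3 tested excitatory markers Neurod2 fell by 0.18 and was 0.23 higher with both drugs than with kainic acid. Of 7 tested interneuron markers Kcnc1 fell by 0.33 and was 0.36 higher with both drugs, while Gad1 rose by 0.53 and was 0.50 lower. Slco1a4, 1 of 2 tested endothelial markers, fell by 0.46 and was not called between both drugs and kainic acid alone. With kainic acid 0 of 5 tested CA1, 3 CA3, 3 astrocyte and 4 oligodendrocyte markers fell. The same held for 3 markers of oligodendrocyte precursors, 2 of microglia and 2 of thalamus and habenula. The part of such marker shifts in the values of Trpm7, Scn3b, Scn8a and Cacna2d1 was not tested.

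Partners of these channels were looked up in lists chosen for their roles. Of 8 tested sodium channel partners and 2 tested HCN partners 0 were called in kainic acid minus vehicle or in SL327 with kainic acid minus kainic acid. Of all probe sets 19.6% and 18.9% were called in these comparisons. Of 10 tested calcium channel regulators 1 rose with kainic acid, where 7.41% of all probe sets rose. It was Rem2, a small GTPase that inhibits voltage-gated calcium channels, which averaged 8.30 with kainic acid and 7.75 with vehicle, a difference of 0.55 ± 0.10 (limma, adjusted p = 0.002). With SL327 and kainic acid Rem2 averaged 7.95, lower than with kainic acid alone by 0.35 on the log2 scale (limma, adjusted p = 0.0261). Of 8 tested genes for store-operated entry and the NALCN complex, Orai3, a store-operated calcium channel subunit, fell by 0.38 with kainic acid (limma, adjusted p = 0.0418) and was 0.44 higher with SL327 and kainic acid than with kainic acid alone (limma, adjusted p = 0.0209). Stim2, a calcium sensor of the endoplasmic reticulum, was 0.26 higher in that second comparison (limma, adjusted p = 0.0301). Of all probe sets 12.2% fell with kainic acid and 13.1% were higher in the second comparison.

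The TRP channel partners held the largest change of these lists of partners. Homer1, whose proteins bind metabotropic glutamate receptors, IP3 receptors and TRPC channels, averaged 10.46 with kainic acid and 8.85 with vehicle, a difference of 1.61 ± 0.07 (limma, adjusted p = 1.19e-08). The paper lists Homer1a for its in situ probe, and the transcript forms of Homer1 were not separated here. With SL327 and kainic acid Homer1 averaged 8.84, near its vehicle level. The TRPC genes themselves had differences of 0.02 (Trpc1) and -0.22 (Trpc4) with kainic acid, neither of which passed. Homer2 fell by 0.19 with kainic acid and by 0.21 with SL327 alone (limma, adjusted p = 0.012 and 0.0216). The 7 other TRP partners tested were not called in either comparison, where 19.6% and 6.31% of all probe sets changed.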

How the data were processed

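The deposited values are log2 intensities, which the authors computed from Affymetrix mouse exon arrays by robust multi-array average (oligo, target full). Tool versions are not given in the sources used here. No further background correction or normalization was applied to them. Of 20372 probe sets 14704 had 1 gene name, 713 several and 4955 none. After the filter of the methods (probe sets with a gene name, above the median of such probe sets in at least 3 arrays), 8520 were tested. Group means of all 16 arrays were fitted with limma 3.58.1 in R 4.3.3 (11 residual and 3.2 prior degrees of freedom), with 7 two-sided comparisons, Benjamini-Hochberg adjustment over the 8520 probe sets and a threshold of 0.05, and the scripts were tested on simulated data. Samples were grouped by their labels. Each array is another mouse, so p-values cover the spread between mice, and the number of arrays limits the precision. Levels are not compared between genes, since probe sets differ in brightness. The members and gene lists were chosen with earlier results of these data known. Given in each array are members past the threshold in any comparison, and given by group are those with the smallest p of each family with kainic acid or SL327, while Scn3a, Scn1a, Scn2a, Cacnb1 and others were added after their values were seen. Alternatives covered the filter, scaling, the groups fitted, the spread, the control group, a replicate block and each array left out in turn. Arrays from 4 and 8 h after seizure onset were not analysed here.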

Additional observations from a re-analysis of the deposited data

Results flagged for a closer look

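In 42 groups of 4 untreated arrays, 1 for each channel gene, the highest or lowest array was tested for its distance from the others, and 5 stood apart. By chance about 1 group in 20 does so, but all 42 groups are the same 4 mice and are not independent. The share over all probe sets was not computed, so the count cannot be read as particular to channel genes. Untreated replicate 2 was high for Cacna2d2 (8.23, next array 7.74), for Cacng8 (9.12, next 8.90) and for Trpc4 (8.52, next 8.09), and low for Trpm2 (7.25, next 7.36). Untreated replicate 1 was high for Cacng7 (8.43, next 8.11). Untreated replicate 2 was also the array with the highest choroid plexus marker mean, 8.64, and whether this bears on the 4 genes was not tested. The groups of 3 arrays were too small for this check.

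Scn3a lies outside the tested set because its probe set was below the median of every array. Its change with kainic acid against vehicle, -0.29, passed when no filter was applied (limma, adjusted p = 0.0352).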

How the results depend on the processing

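The fall of Trpm7 with kainic acid remained called in 26 of 28 alternatives and its difference between SL327 with kainic acid and kainic acid alone in 24 of 26. That difference remained called in 23 of 26 for Cacnb2, 18 for Cacna2d1 and 9 for Scn3b, and the rise of Cacng3 with SL327 in 8 of 28. In kainic acid minus vehicle, where 1 member was called, the count was 2 without the filter (where 13.3% of all probe sets changed), 2 with only the groups compared (18.3%), 3 with quantile normalization (20.0%), 4 with array weights (28.6%), 5 against pooled controls (33.0%) and 7 against untreated mice (32.8%), against 19.6% as reported. With 1 array left out in turn it was 0 to 3. In SL327 minus vehicle, also 1 where 6.31% of all probe sets changed, it was 3 with only the groups compared (8.59%), 6 with array weights (20.5%) and 0 without the filter (2.97%), with probe sets without a gene name added, with the array median taken over the whole table (chosen after seeing the data), with centring, with quantile normalization and against untreated or pooled controls, and 0 to 2 with 1 array left out. In SL327 with kainic acid minus kainic acid, where 4 were called, it was 2 after centring (15.9% of all probe sets, against 18.9%) and 0 to 4 with 1 array left out, with 0 without replicate 3 of the combined treatment and 1 without its replicate 1 or without kainic acid replicate 2 or 3. In SL327 with kainic acid minus vehicle array weights gave 1 (4.21%), and in the interaction quantile normalization gave 1 (7.21%), only the groups compared 1 (6.81%), array weights 4 (13.4%) and 1 array left out 0 to 1. The cause of these differences was not tested. Where no share of all probe sets stands beside a count, the count cannot be read as particular to channel genes.

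Trpv4 with kainic acid changed sign, with values of -0.0617 to 0.119 when 1 array was left out in turn (-0.01, -0.04 and -0.06 without vehicle replicate 1, vehicle replicate 3 and kainic acid replicate 3), and of -0.39 and -0.21 against untreated and pooled controls. Cacna2d1 with SL327 was -0.0066 against untreated mice.

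No sign of a pairing by replicate number was seen, although groups this small cannot exclude one. Of 30 pairs of arrays with the same number 5 had deviations correlated above 0.1, with a range of r from -0.22 to 0.18. Of 72 pairs with different numbers 15 did, with a range from -0.20 to 0.27. With the replicate number as a block, 0 members were called in SL327 minus vehicle, where Cacng3 had an adjusted p of 0.0809, and Cacna2d1 had one of 0.057 in SL327 with kainic acid minus kainic acid (limma).

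With 3 or 4 mice per group, the 95% interval lay within 0.25 of 0 for 15 of the 32 genes in kainic acid minus vehicle. It did so for 3861 of the 8520 probe sets tested.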
